A study of Mus musculus with 72 samples.

Results

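The genes described here are 33 genes of the unfolded protein response and the integrated stress response, followed in mouse liver across 4 concentrations of tertiary butyl alcohol (TBA), a solvent and fuel oxygenate, in the drinking water. They were chosen by name as the sensors, transcription factors, chaperones and targets of these pathways, and were found through the gene symbol in each probe's name, among 21400 symbols in all. They have 54 of the 30146 probes in the data, with 14 genes at 1 probe, 17 at 2 and 2 at 3 probes. Of the 54 probes, 53 passed the filter on low counts, and each of the 33 genes was tested at the probe with its highest mean count. The animals were female B6C3F1 mice, 9 to 11 weeks old, housed singly, that drank 40, 20 or 10 mg/mL TBA, against controls at 0 mg/mL, for 14 or 28 d, with 9 mice in each of the 8 groups. The study's title concerns how the compound leads to thyroid follicular tumours in female mice, and whether an effect against the thyroid hormone system lies behind them. Liver was formalin-fixed and paraffin-embedded, scraped from slides and measured with TempO-Seq, in which pairs of short detector probes are ligated on the RNA and counted by sequencing, so a value reports the probe's target and not the length of a transcript. Each library is thus a whole liver section with all of its cell types, in which fewer cells of a type and less RNA per cell cannot be told apart.

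Proteins that fold in the endoplasmic reticulum (ER) are watched by the membrane sensors IRE1 (Ern1), PERK (Eif2ak3) and ATF6 (Atf6). When misfolded protein draws away BiP (Hspa5), the chaperone that binds them at rest, IRE1 splices Xbp1 mRNA, ATF6 is cleaved into a transcription factor, and PERK phosphorylates eIF2alpha, which slows translation while favouring that of Atf4. XBP1 and cleaved ATF6 raise chaperones, folding enzymes and the machinery of ER-associated degradation, whereas ATF4 raises Ddit3 (CHOP), Trib3, Chac1 and enzymes of amino acid supply, and the ATF4 arm is shared with the integrated stress response to amino acid shortage, haem shortage and viral RNA. Hepatocytes secrete large amounts of plasma protein and express these ER chaperones at rest, together with the liver-enriched ER membrane factor CREB-H (Creb3l3).

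Many of the chaperone genes share a sequence in their promoters, which is shown because 8 members carry it and it lets their levels be set beside those of the other members. The ER stress response element (ERSE), the site through which NF-Y and ATF6 or XBP1 act, was searched on both strands as CCAAT, 9 bases of any kind and CCACG in the RefSeq promoter windows of build GRCm38.p6, each 250 bases before to 50 bases from the gene's start. It was found in 39 of 32851 windows (0.119%) and in 8 of the 30 member genes that had a window (26.7%). The first share counts windows, those of the members included, and the second counts genes, which have 32 windows. As the members were chosen by name as genes of this response, the shares are a description and not a test. Each element is printed on its own strand, 5′ to 3′, with the CCAAT and CCACG ends in capitals; Hsp90b1 has 2.

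Hspa5: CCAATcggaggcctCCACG
Hsp90b1, nearer the start: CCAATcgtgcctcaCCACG
Hsp90b1, farther from the start: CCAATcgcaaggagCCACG
Dnajc3: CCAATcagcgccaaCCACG
Pdia6: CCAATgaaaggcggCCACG
Calr: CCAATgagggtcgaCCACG
Canx: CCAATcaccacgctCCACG
Creld2: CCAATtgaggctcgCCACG
Syvn1: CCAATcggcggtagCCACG

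The 250 bases before the start of 4 of these genes follow in the gene's own orientation, with the whole element in capitals; an element that lies on the opposite strand reads there as its reverse complement, as do the nearer one of Hsp90b1 and that of Creld2. The Hspa5 element lies 65 to 47 bases before the start, those of Hsp90b1 at 212 to 194 and at 107 to 89, that of Canx at 145 to 127 and that of Creld2 at 126 to 108.

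Hspa5, chr2:34771840-34772089, plus strand: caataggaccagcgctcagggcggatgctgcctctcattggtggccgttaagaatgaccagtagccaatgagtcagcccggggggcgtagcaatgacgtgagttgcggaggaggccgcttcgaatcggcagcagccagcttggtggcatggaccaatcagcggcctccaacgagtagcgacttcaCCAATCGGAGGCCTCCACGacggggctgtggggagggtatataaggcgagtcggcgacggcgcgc
Hsp90b1, chr10:86705445-86705694, minus strand: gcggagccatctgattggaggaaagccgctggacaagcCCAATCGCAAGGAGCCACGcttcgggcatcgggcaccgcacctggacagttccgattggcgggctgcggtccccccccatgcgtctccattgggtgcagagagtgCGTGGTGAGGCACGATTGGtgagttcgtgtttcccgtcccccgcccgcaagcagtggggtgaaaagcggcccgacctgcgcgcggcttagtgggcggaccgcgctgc
Canx, chr11:50325674-50325923, minus strand: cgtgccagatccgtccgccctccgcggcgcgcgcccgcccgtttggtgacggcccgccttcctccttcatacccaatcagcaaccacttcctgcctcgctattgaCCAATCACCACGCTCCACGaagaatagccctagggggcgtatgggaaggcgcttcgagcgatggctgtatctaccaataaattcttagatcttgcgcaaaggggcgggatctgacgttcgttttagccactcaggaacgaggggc
Creld2, chr15:88819396-88819645, plus strand: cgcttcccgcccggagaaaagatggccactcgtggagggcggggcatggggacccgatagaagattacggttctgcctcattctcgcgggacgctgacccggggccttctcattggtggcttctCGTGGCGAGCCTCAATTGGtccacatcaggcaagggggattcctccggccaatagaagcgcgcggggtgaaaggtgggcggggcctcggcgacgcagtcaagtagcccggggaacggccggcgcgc

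A compact form, ERSE-II, searched as ATTGG, 1 base and CCACG on both strands, was found in 12 of the 32851 windows (0.0365%) and in 2 members, Dnajb11 and Herpud1. The core TGATGCAA, bound by ATF4 with a C/EBP partner, was found in 294 windows (0.895%) and in Atf3, Chac1 and Herpud1. The XBP1 core TGACGTGG was in 222 windows (0.676%) and in 0 members, and the cyclic AMP response element TGACGTCA in 588 windows (1.79%) and in Ppp1r15a. ERSE, ERSE-II and, on its other strand, TGACGTGG share the letters CCACG, so their matches can overlap. A match is a description of the letters, and a missing match says only that the letters are not in this window. Manf, Atf6 and Hyou1 had no entry.

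Total counts were 7.77 M to 12.7 M (M, mega) in the 71 libraries kept, with a median of 10.1 M. Replicate 5 of 40 mg/mL at 14 d had 10796 counts and was left out, so that group has 8 mice. Levels are given as normalized CPM, the counts of a probe per 1 M counts of its library, after the library total was multiplied by a TMM scaling factor, and probes of different genes are not compared in level. The scaling factor, which is high where the most abundant features take little of a library, ran from 0.79 to 1.58. In 11 libraries it was 1.26 to 1.58, and these are called high-factor libraries: 4 of the 8 at 40 mg/mL and 14 d, 1 each at 20 and at 10 mg/mL and 14 d, 2 each at 40 and at 20 mg/mL and 28 d, and 1 of the 9 controls at 28 d, against 0 of the 9 controls at 14 d. Hepatocyte markers were present in each group: the summed level of 7 of them (Alb, Ttr, Apoa1, Serpina1a, Fgb, Tat and Cyp2e1) had a median of 20121.9 CPM (9374.3 to 42353.7) at 40 mg/mL and 48935.9 CPM (42812.2 to 60290.3) in controls at 14 d. The sum is weighted to the most abundant marker, Apoa1, with a mean of 20775.7 CPM over all libraries. Tat, with a mean of 18.6 CPM, had a log2 fold change of 0.67 in this comparison, and the others were below 0. The 9 measured markers of pancreatic acinar cells, which are rich in ER chaperones, summed to at most 15.7 CPM in any library with Prss2 at 0 in all, and the 9 measured plasma and B cell markers to at most 11.5 CPM.

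At 40 mg/mL for 14 d, 4 of the 33 genes fell and 0 rose. All 4 encode abundant ER folding proteins: Canx (calnexin, the membrane lectin chaperone), P4hb (protein disulfide isomerase), Pdia4 (a further disulfide isomerase) and Hsp90b1 (GRP94, the ER member of the HSP90 family). Their fitted levels were 0.558 to 0.653 times those of controls, while the transcription factors and the ATF4 targets did not pass the test. By edgeR's quasi-likelihood test with Benjamini-Hochberg adjustment over 17050 probes, 627 probes fell at this dose (3.68%) and 484 rose (2.84%). The median log2 fold change was -0.40 over the 33 members and 0.06 over all probes tested.

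**Figure D1:**
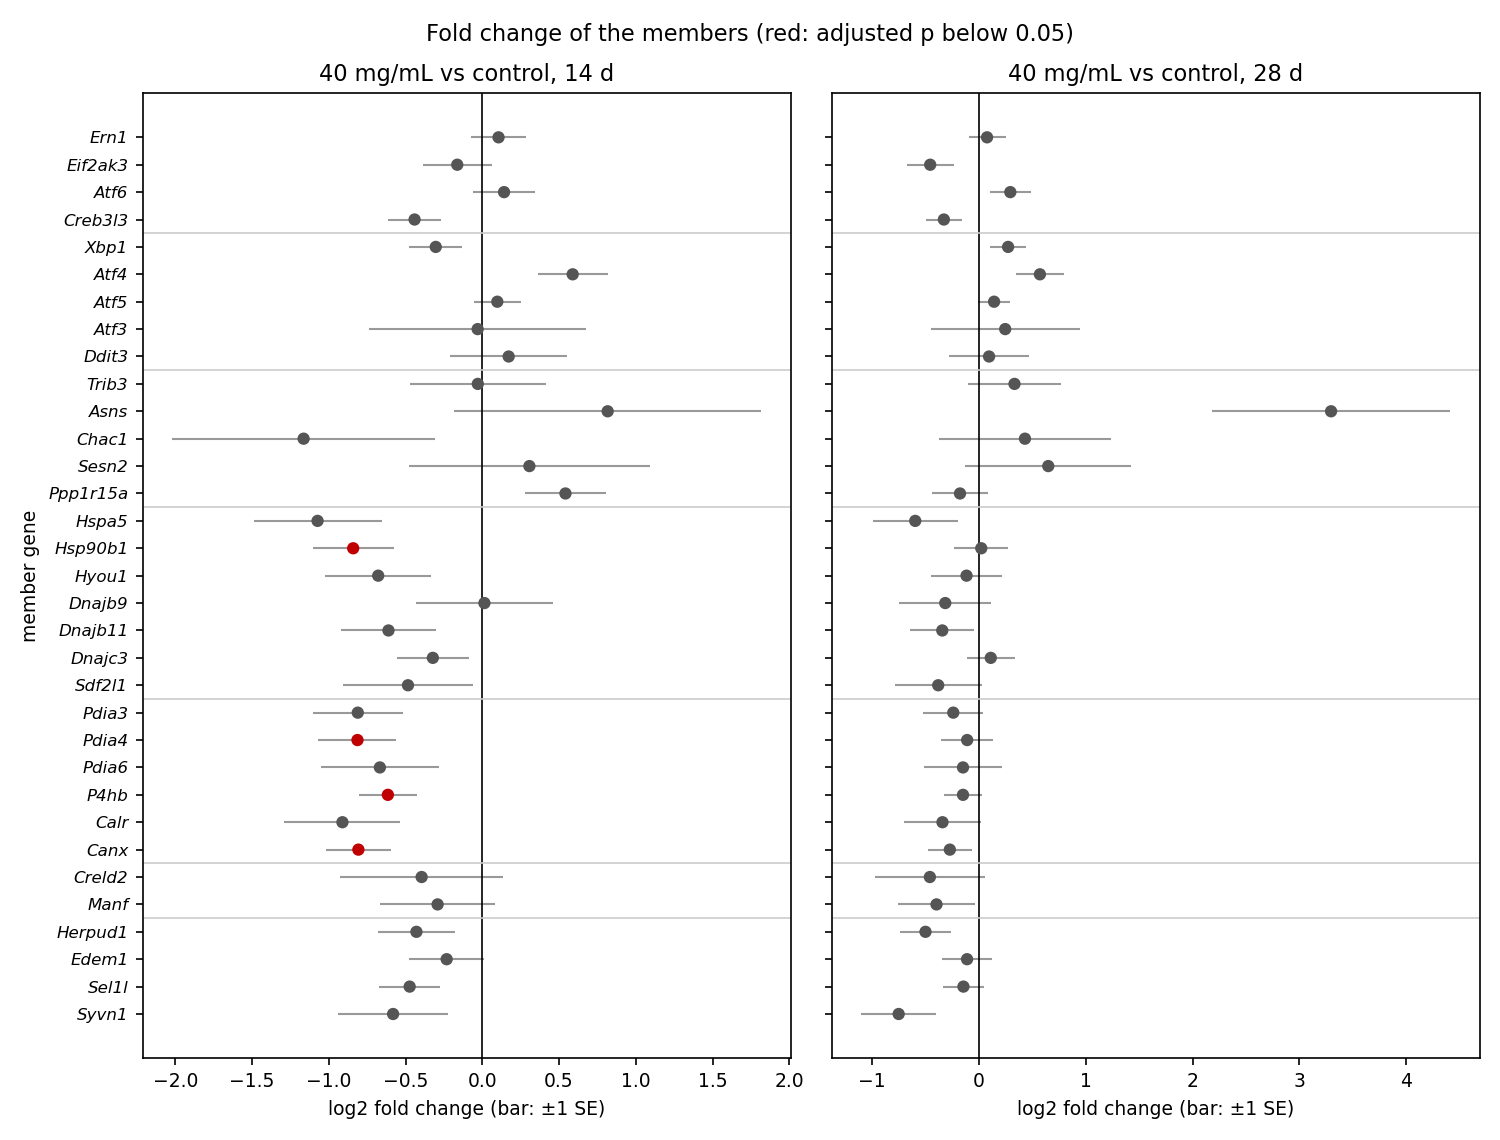
Log2 fold change of each of the 33 members at 40 mg/mL over controls at 14 d (left) and 28 d (right), with bars of 1 SE and grey lines between functional groups. The 4 members past an adjusted p of 0.05 at 14 d are red, all below 0, and at 28 d none is red.

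Canx had 362.8, 575.4 and 1368.8 CPM as its lowest, median and highest level at 40 mg/mL, against 1200.1, 1245.3 and 1460.2 CPM in controls at 14 d. Of the 8 dosed mice 6 lay below every control, while the other 2 lay within the control range, so the groups overlap. Its log2 fold change was -0.81 ± 0.21 (SE; n = 8 and 9) with an adjusted p of 0.0108 in edgeR, and its second probe gave -0.72 ± 0.17 with an adjusted p of 0.00378.

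P4hb, which forms and rearranges disulfide bonds, had 145.8, 206.3 and 419.9 CPM at 40 mg/mL, against 331.8, 379.7 and 409.8 CPM in controls. Here too 6 of 8 mice lay below all controls, and 1 lay above them. The edgeR log2 fold change was -0.62 ± 0.19 (SE) with an adjusted p of 0.0307.

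Pdia4 had 83.2, 148.9 and 305.7 CPM at 40 mg/mL, against 256.5, 277.7 and 428.1 CPM in controls, with 6 of 8 mice below all controls. Its log2 fold change was -0.81 ± 0.25 (SE), adjusted p 0.0379 in edgeR. Hsp90b1 had 113.7, 188.5 and 430.3 CPM at 40 mg/mL, against 337.4, 409.1 and 491.7 CPM in controls, again with 6 of 8 below all controls. Its log2 fold change was -0.84 ± 0.26 (SE), adjusted p 0.0384 in edgeR. A second Hsp90b1 probe had the same direction without passing, at -0.73 ± 0.33 and an adjusted p of 0.189.

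For each of the 4 genes, the 4 lowest levels at this dose were those of the 4 high-factor libraries, and replicates 6 and 9, with factors of 0.98 and 1.12, also lay below all controls. Canx was at 1071.7 CPM in replicate 6 and 667.5 CPM in replicate 9, against a lowest control of 1200.1 CPM, and Hsp90b1 at 199.1 and 284.6 CPM in these replicates, against a lowest control of 337.4 CPM. In the 4 high-factor libraries at 40 mg/mL and 14 d Canx was 362.8 to 483.3 CPM, against 667.5 to 1368.8 CPM in the other 4 of that group. Hsp90b1 was 113.7 to 178.0 CPM in those 4 and 199.1 to 430.3 CPM in the others, and Hspa5 659.8 to 1274.5 CPM in those 4 and 3086.8 to 4610.8 CPM in the others. The same was seen across doses: the median log2 level of the 13 chaperones and isomerases relative to controls was below 0 in 10 of the 11 high-factor libraries, with a median of -1.22, against 36 of the 60 other libraries, with a median of -0.09. Those 60 reached down to -1.38, so low chaperone levels also occurred without a high factor. The factor is itself computed from the same counts. When the log2 factor entered the fit as a covariate, Canx was at -0.08 (adjusted p 0.803) and 0 of the 4 calls held, and without the 11 high-factor libraries 0 of the 33 members were called, with a median log2 fold change of -0.01. The count also rested on single libraries: without replicate 1, 2, 7 or 8 of 40 mg/mL Canx alone was called, without control replicate 1, 2 or 6 there were 2 calls, and without replicate 4 or 6 of 40 mg/mL 6. Of the 6 without replicate 6, 5 fell and Atf4 rose. With the library of 10796 counts kept, 0 were called. The 4 libraries and the dose cannot be told apart at 14 d, since no control of that duration has such a factor, and the part of the factor in the result was not tested.

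**Figure D2:**
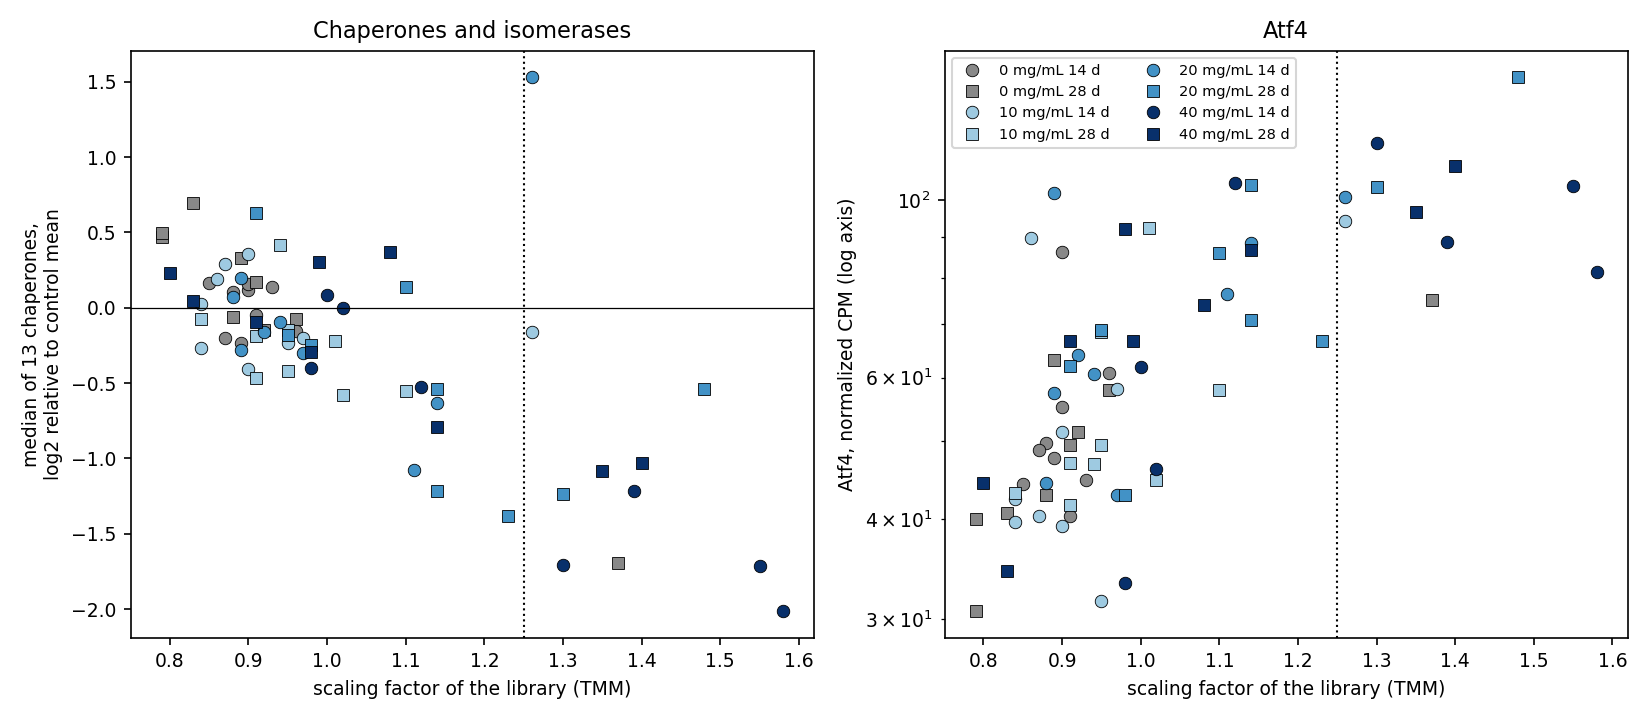
Each of the 71 libraries by its scaling factor (x) against the median log2 level of 13 chaperones and isomerases relative to the control mean of its duration (left) and the normalized CPM of Atf4 on a log axis (right), with a dotted line below the 11 high-factor libraries. Those 11 have a chaperone median of -2.01 to 1.53 and 75.0 to 142.1 CPM of Atf4.

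The members are also among the more abundant probes. Of the 278 probes with a mean above 500 CPM 41.4% fell at 40 mg/mL and 14 d, and of the 1246 with a mean above 100 and up to 500 CPM 16.5% fell. Among the members, 1 of 8 in the first class and 3 of 12 in the second fell, and 0 of the 13 with lower levels. The median log2 fold change in the first class was -0.71 for the members and -0.56 for all its probes, and in the second -0.53 and -0.13. When libraries were scaled by their totals alone the median of all probes moved to 0.54 and that of the members to -0.01. Then Canx was called lower (-0.46, adjusted p 0.00665) and Atf4, Atf5, Atf6, Ern1 and Ppp1r15a higher, while P4hb, Pdia4 and Hsp90b1 did not pass.

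**Figure D3:**
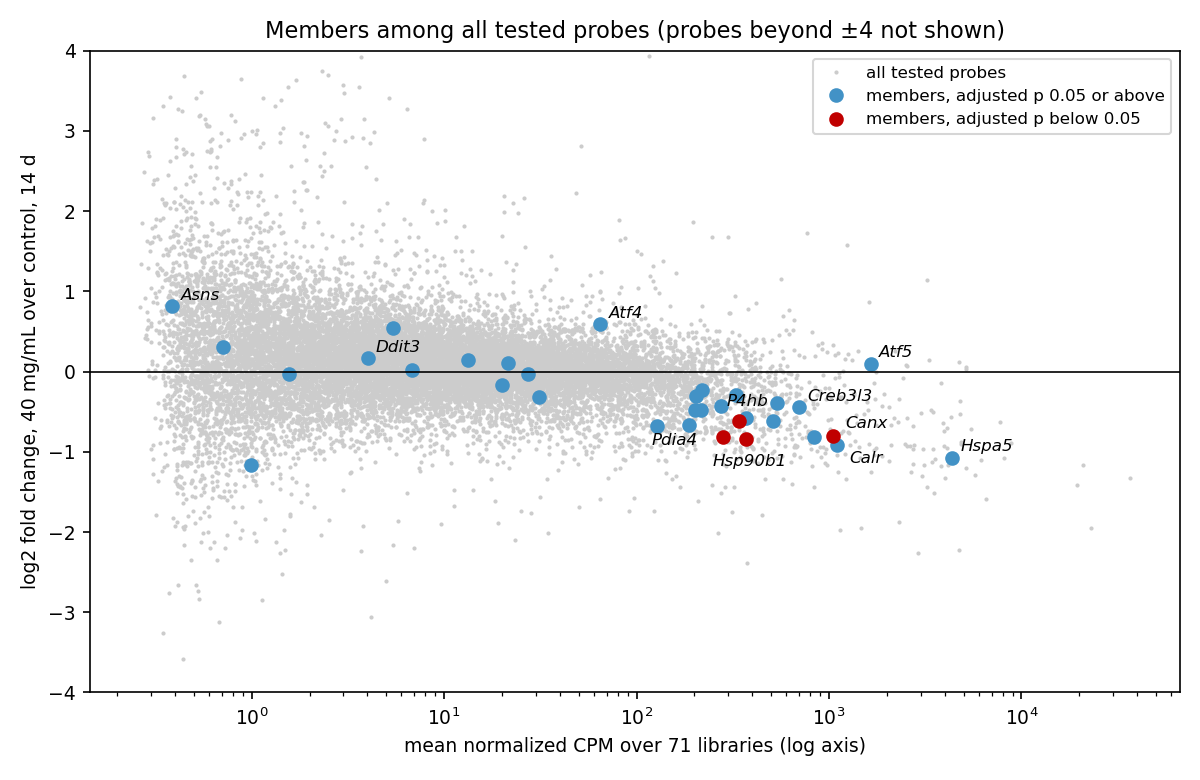
Log2 fold change at 40 mg/mL over controls at 14 d against the mean normalized CPM on a log axis, for all 17050 probes tested (grey) and the 33 members (blue, or red where the adjusted p is below 0.05). The grey cloud itself bends below 0 at the right, where the chaperones lie, with a median of -0.56 above 500 CPM.

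The other chaperones and isomerases lay below 0 without passing, except Dnajb9. Hspa5, which encodes BiP, had 659.8, 2180.7 and 4610.8 CPM at 40 mg/mL, against 2745.3, 4824.7 and 8346.1 CPM in controls, and 4 of 8 mice were below all controls. Its log2 fold change was -1.07 ± 0.42 (SE), adjusted p 0.117 in edgeR, and its other 2 probes were at -0.65 and -0.77. Calr (calreticulin, the soluble partner of calnexin) was at -0.91 ± 0.38, adjusted p 0.150, while its second probe passed at -0.98 ± 0.31 with an adjusted p of 0.0442 in edgeR. That probe had 82.7, 249.3 and 545.9 CPM at 40 mg/mL, against 487.3, 534.5 and 637.6 CPM in controls, with 7 of 8 mice below all of them. Pdia3 (ERp57, which works with the lectin chaperones) was at -0.81 ± 0.29 with an adjusted p of 0.0827. Pdia6 (-0.67), Hyou1 (GRP170, -0.68) and the BiP cochaperones Dnajb11 (-0.61), Sdf2l1 (-0.48) and Dnajc3 (-0.32) had adjusted p-values of 0.271 to 0.606, and Dnajb9 (ERdj4) was at 0.01. Over all 53 probes 7 fell and 0 rose, from 6 genes.

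Of the members with an ERSE, 2 of 8 fell (Canx and Hsp90b1) and all 8 had a log2 fold change below 0, with a median of -0.74. Of the 22 with a window but no such element 2 fell (P4hb and Pdia4) and 14 were below 0, with a median of -0.20. The 22 include the transcription factors, the ATF4 targets and the sensors other than Atf6, while the 8 include none of these. All 6 isomerases and lectin chaperones, with or without the element, were below 0, with a median of -0.81. Over the 5 transcription factors the median was 0.10 and over the 5 ATF4 targets 0.31. Of the 8, 7 have a mean above 100 CPM, and the parts of role and abundance in this difference were not tested.

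**Figure D4:**
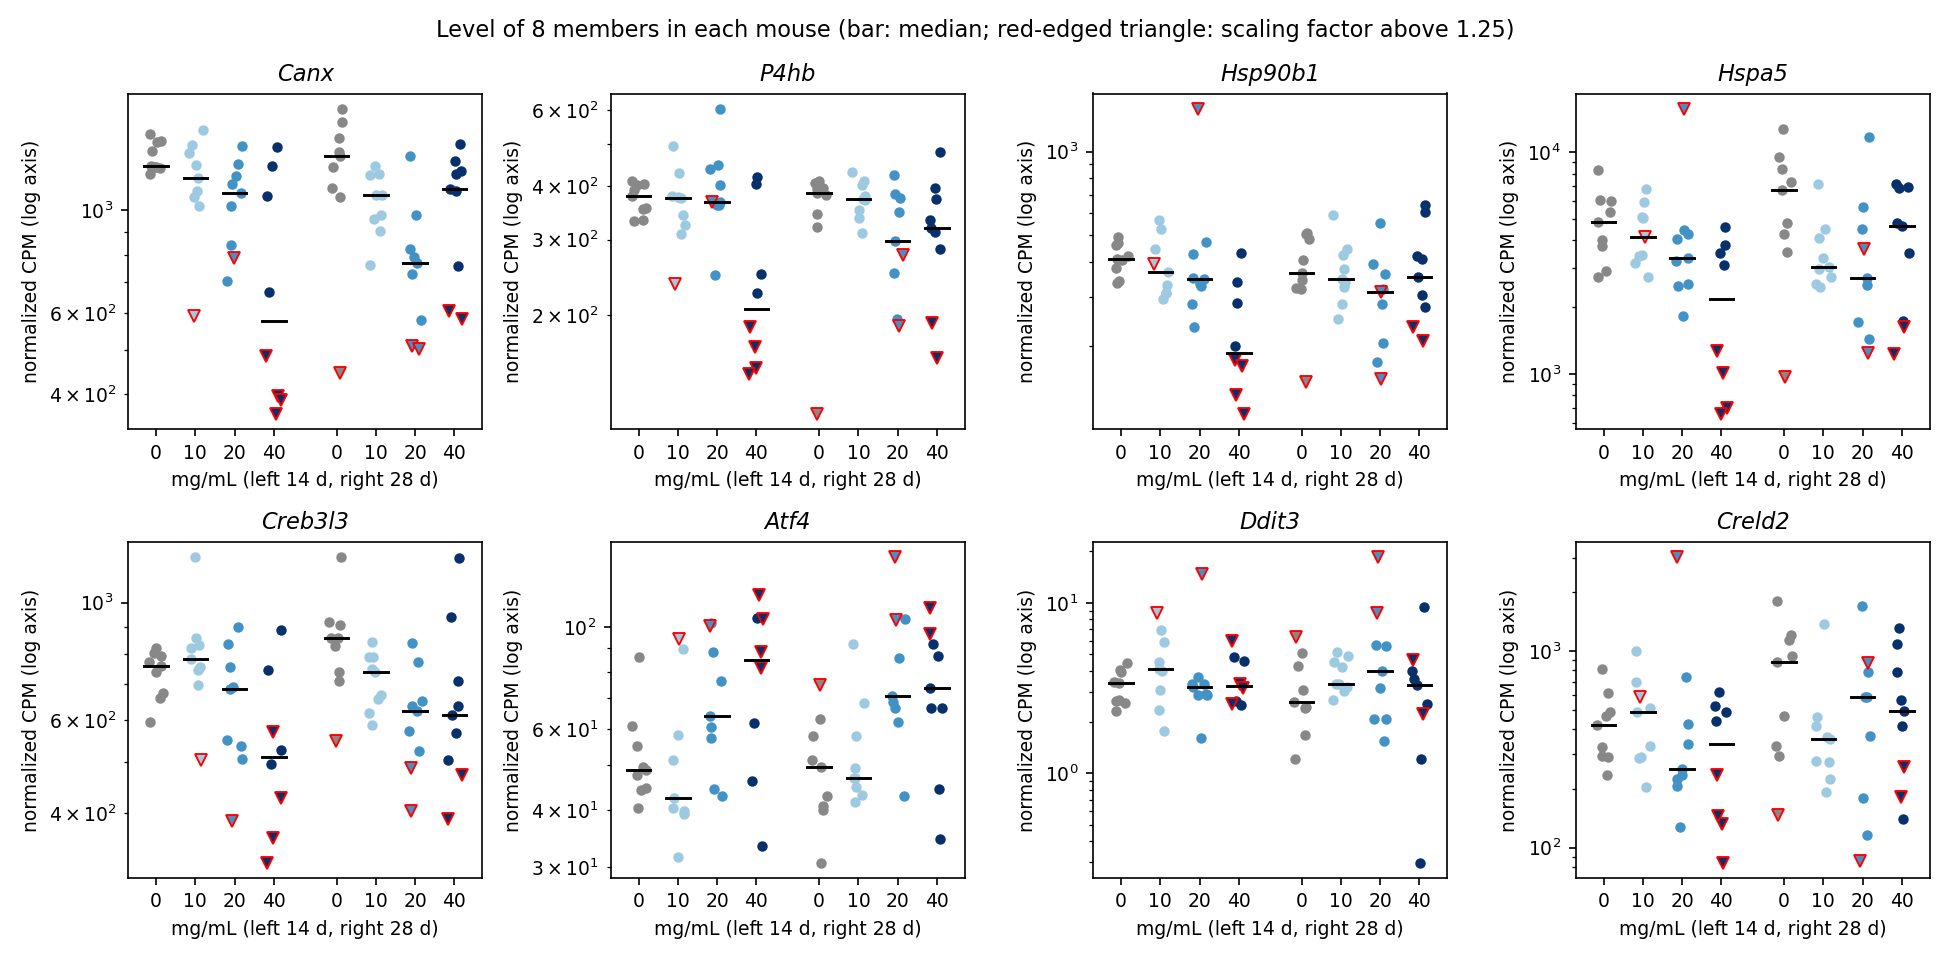
Normalized CPM on a log axis of 8 members in each mouse, by dose, with 14 d on the left and 28 d on the right of each panel; bars are medians and red-edged triangles high-factor libraries. At 40 mg/mL and 14 d the triangles are the 4 lowest Canx, P4hb, Hsp90b1 and Hspa5 values, and for Atf4 they lie between 81.4 and 117.6 CPM.

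Of the sensors, 0 of 4 passed the test at 40 mg/mL and 14 d at the most abundant probe. Ern1 had 11.3, 23.9 and 32.7 CPM at 40 mg/mL, against 16.9, 19.9 and 29.7 CPM in controls. Eif2ak3 had 12.3, 17.8 and 27.6 CPM against 13.8, 20.7 and 29.1 CPM in controls, and Atf6 6.85, 13.0 and 19.1 CPM against 7.89, 10.4 and 16.0 CPM in controls. For these 3 the groups overlap, with at most 2 of 8 mice below and 1 above all controls, and the log2 fold changes were 0.11, -0.16 and 0.14, with adjusted p-values of 0.777 to 0.822 in edgeR. Creb3l3 had 322.0, 510.5 and 887.9 CPM at 40 mg/mL, against 594.3, 758.4 and 821.3 CPM in controls, with 6 of 8 mice below all controls and 1 above. That probe did not pass (-0.44 ± 0.17, adjusted p 0.122), whereas its other probe fell by 0.44 ± 0.12 on the log2 scale with an adjusted p of 0.0126 in edgeR.

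Of the 5 transcription factors 0 passed the test. Atf4 had 33.3, 85.0 and 117.6 CPM at 40 mg/mL, against 40.3, 48.8 and 86.0 CPM in controls at 14 d. Of the 8 mice 4 lay above every control and 1 below, and the log2 fold change was 0.59 ± 0.23 (SE), adjusted p 0.113 in edgeR. Atf4 stood higher in the high-factor libraries over all doses, with a median of 100.7 CPM in those 11 against 51.4 CPM in the other 60, and with the covariate its value was -0.12. Ddit3, which encodes CHOP and is a standard readout of ATF4 activity, had 2.51, 3.26 and 5.98 CPM at 40 mg/mL, against 2.32, 3.40 and 4.46 CPM in controls. Of the 8 mice 3 lay above every control and 5 within the control range, and the log2 fold change was 0.17 ± 0.38. Xbp1 (116.8, 168.6 and 216.9 CPM at 40 mg/mL, against 149.2, 202.2 and 260.8 CPM in controls) was at -0.30 ± 0.17, and the probe counts do not tell its spliced form from its unspliced form. Atf5, a factor whose translation is favoured under stress like that of Atf4, had 1409.1, 1908.9 and 2477.5 CPM at 40 mg/mL, against 1480.4, 1745.6 and 2070.8 CPM in controls. Atf3, an immediate stress gene, was near the floor, with 0, 1.38 and 3.69 CPM at 40 mg/mL and 0, 1.09 and 5.25 CPM in controls.

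Of the 5 ATF4 targets 0 passed the test. Ppp1r15a (GADD34, which reverses the phosphorylation of eIF2alpha) had 4.65, 7.13 and 11.3 CPM at 40 mg/mL, against 1.01, 4.98 and 6.99 CPM in controls, with 5 of 8 mice above all controls. Its log2 fold change was 0.54 ± 0.27 (SE), with an adjusted p of 0.245 in edgeR. Trib3, a pseudokinase induced by ATF4 and CHOP, had 11.4, 17.2 and 44.9 CPM at 40 mg/mL, against 13.1, 20.4 and 40.7 CPM in controls, with a log2 fold change of -0.03. Asns (asparagine synthetase), Chac1 (a glutathione-degrading enzyme) and Sesn2 (sestrin 2) had medians of 0.556, 0.226 and 0.740 CPM at 40 mg/mL and 0.243, 1.27 and 0.767 CPM in controls. At such levels a library holds few counts, and how large a change could be detected was not tested. Chac1 had the lowest log2 fold change of the 33 members, -1.16, without passing, at 0 to 1.78 CPM against 0.558 to 2.49 CPM in controls.

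Among the ER-associated degradation members, 0 of 4 passed the test. Herpud1, Edem1, Sel1l and Syvn1, the last a ubiquitin ligase that works with Sel1l, had log2 fold changes of -0.43, -0.23, -0.47 and -0.58 with adjusted p-values of 0.154 to 0.685 in edgeR. Sel1l had 75.8, 136.2 and 237.3 CPM at 40 mg/mL, against 183.1, 197.4 and 226.4 CPM in controls, with 6 of 8 mice below and 1 above all controls. Creld2 and Manf, ER proteins that are secreted under stress, were at -0.40 ± 0.53 and -0.29 ± 0.37.

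Across the 14 d doses 5 members had a falling linear trend, against 4.34% of all probes falling and 3.65% rising. They were Canx, P4hb, Hsp90b1, Pdia4 and, at both probes, Creb3l3. Median Canx was 1245.3, 1177.1, 1089.8 and 575.4 CPM at 0, 10, 20 and 40 mg/mL, a log2 change of -0.20 ± 0.05 per 10 mg/mL (SE; adjusted p 0.00724 in edgeR). Median Creb3l3 was 758.4, 781.7, 686.4 and 510.5 CPM, a change of -0.13 ± 0.04 per 10 mg/mL with an adjusted p of 0.0422. The medians of P4hb were 379.7, 373.9, 367.0 and 206.3 CPM, so the drop stood at the top dose. Of the 5 transcription factors 0 passed in the main trend, with a smallest adjusted p of 0.0503 in edgeR. Without replicate 1, 2, 7 or 8 of 40 mg/mL the trend passed for Canx alone, and without control replicate 2 or 6 for 3 members. Without replicate 3, 4 or 6 of 40 mg/mL it passed for 8, 10 and 8, of which 7, 9 and 7 fell and Atf4 rose. DESeq2, DESeq2's size factors and probes summed per gene also called a rising trend of Atf4. At 20 mg/mL and 14 d 0 members were called (background 0.0352% of probes), with 0 members and 1032 probes at an unadjusted p under 0.05, and at 10 mg/mL 0 (background 0%), with 1 member and 736 probes at that p. DESeq2 and limma also called 0 members at both doses.

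At 28 d 0 members were called at 40 mg/mL (background 0.00587%, 1 probe), at 20 mg/mL (0.158%, 27 probes) or at 10 mg/mL (0%), nor in the 28 d trend (0.129%). At an unadjusted p under 0.05 in edgeR there were 5, 10, 6 and 3 of the 33 members, in the same order, against 1078, 2583, 707 and 1346 of all 17050 probes. DESeq2 and limma called 0 members at 40 and at 10 mg/mL. Canx had 583.3, 1110.4 and 1394.9 CPM at 40 mg/mL and 28 d, against 444.3, 1309.3 and 1658.3 CPM in controls, with a log2 fold change of -0.27 ± 0.20. Hsp90b1 had 208.4, 353.6 and 643.5 CPM at 40 mg/mL, against 148.7, 367.2 and 510.6 CPM in controls, at 0.02 ± 0.25. For both genes the ranges overlap; 2 of 9 mice were above all controls for Hsp90b1. P4hb (159.2, 318.8 and 478.4 CPM at 40 mg/mL, against 117.7, 384.0 and 411.7 CPM in controls) was at -0.15 ± 0.18 and Pdia4 (146.9, 264.9 and 471.4 CPM, against 123.6, 306.0 and 379.7 CPM in controls) at -0.11 ± 0.24. The difference between the effects at 28 d and at 14 d passed for 0 of the 33 members and 0% of probes, with unadjusted p under 0.05 for Hsp90b1, Xbp1 and Pdia4 and for 1081 of all probes, so the loss of the calls at 28 d is not shown to be a change with time.

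Atf4 at 28 d had 34.5, 73.9 and 110.2 CPM at 40 mg/mL, against 30.7, 49.5 and 75.0 CPM in controls, with 4 of 9 mice above all controls. Its log2 fold change was 0.57 ± 0.22 (SE), adjusted p 0.624 in edgeR, close to the value at 14 d. Asns had the smallest p of the members, with a median of 0.399 CPM and a highest value of 2.51 CPM at 40 mg/mL, against 0 and 0.241 CPM in controls, and 5 of 9 mice above all controls. Its adjusted p was 0.492. Creb3l3 had 389.1, 613.5 and 1214.1 CPM at 40 mg/mL, against 546.7, 857.5 and 1218.9 CPM in controls, at -0.33 ± 0.17. The other sensors and factors overlapped with their controls: Ern1 had medians of 22.0 CPM at 40 mg/mL and 19.8 CPM in controls, Eif2ak3 17.7 and 23.9, Atf6 17.8 and 13.0, Xbp1 190.6 and 194.4, Atf5 1763.1 and 1593.3, Atf3 1.10 and 1.34, and Ddit3 3.31 and 2.63 CPM, in the same order of groups.

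At 20 mg/mL and 28 d the members came closest to a call at that duration. Canx had 502.2, 768.2 and 1309.2 CPM at 20 mg/mL, against 444.3, 1309.3 and 1658.3 CPM in controls (log2 -0.68 ± 0.20, adjusted p 0.107 in edgeR), and Calr 286.1, 638.1 and 1773.1 CPM, against 195.3, 1656.0 and 2503.4 CPM in controls (-1.10 ± 0.37, adjusted p 0.138). The lowest control in both is replicate 3, whose scaling factor is 1.37. Without that 1 control 4 members were called, Calr, Canx and Pdia6 lower and Atf4 higher, and Canx and Calr were also called by DESeq2, by limma and without the high-factor libraries. DESeq2 called Atf4 higher as well. The mean of Atf4 was 83 ± 29.7 CPM at 20 mg/mL and 50.1 ± 13.6 CPM in controls (SD). Among the transcription factors the smallest adjusted p here was 0.118 in edgeR. Without replicate 7 of 20 mg/mL, Calr, Canx and Pdia6 were called. Hepatocyte markers summed to a median of 27442.9 CPM at 20 mg/mL and 50879.5 CPM in controls at 28 d, and their part in these values was not tested.

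Between the 28 d controls and the 14 d controls 0 of the 33 members were called (background 0% of probes), with 0 members and 516 probes at an unadjusted p under 0.05 in edgeR. Hspa5 had 965.0 to 12664.6 CPM in the 28 d controls and 2745.3 to 8346.1 CPM in the 14 d controls. The lowest 28 d control was again replicate 3, in which the 13 chaperones and isomerases had a median of -1.70 on the log2 scale relative to the control mean, with 29.8 CPM of Pdia6, the lowest of all 71 libraries, against 164.0 to 450.1 CPM in the other 8 controls.

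**Figure D5:**
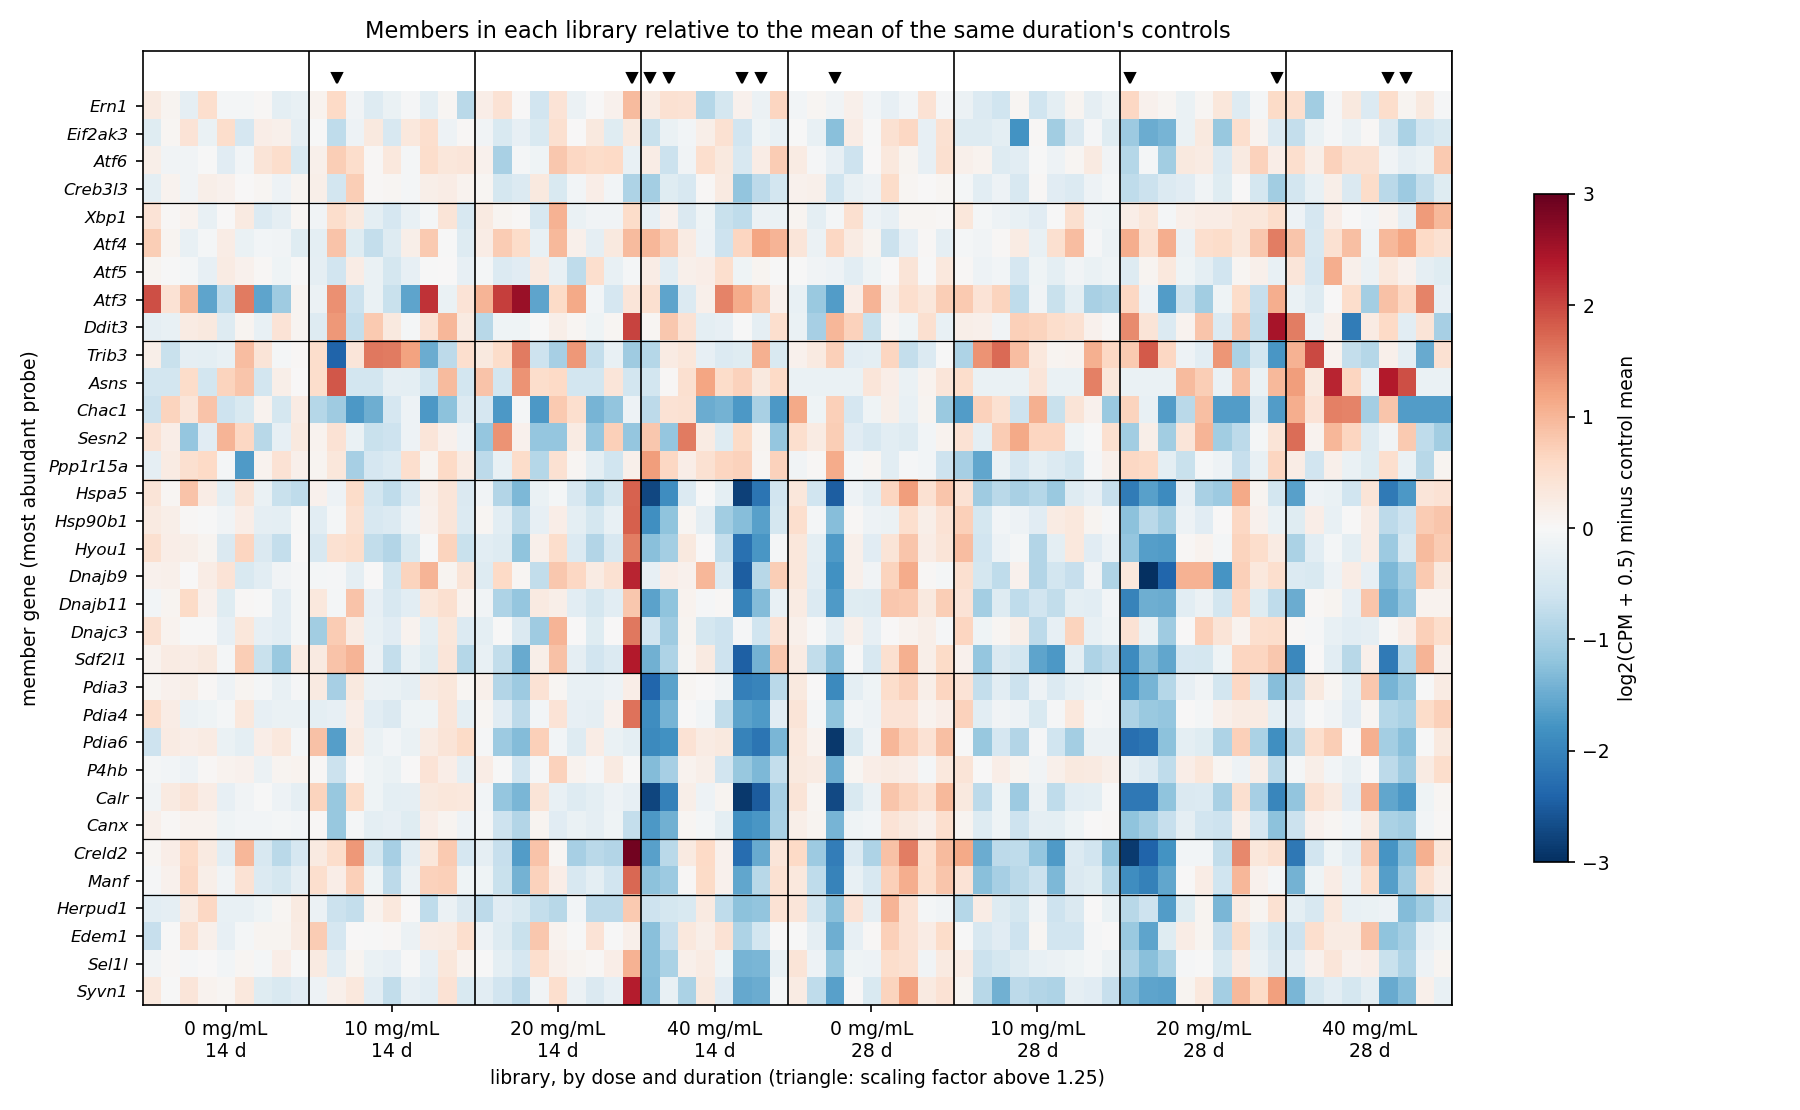
Log2 level of the 33 members (rows, grouped by role) in each of the 71 libraries (columns) relative to the mean of the controls of the same duration; triangles mark high-factor libraries. Blue columns of chaperones stand under triangles at several doses and in 1 control at 28 d. The last 20 mg/mL library at 14 d is red in many members, with Creld2 at 3018.1 CPM, and blue in others, among them Creb3l3, Trib3 and Canx.

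One mouse had the highest levels of many ER genes. Replicate 9 of 20 mg/mL at 14 d was the highest of all 71 libraries in 12 of the 33 members, although its scaling factor of 1.26 places it among the high-factor libraries. Creld2 stood at 3018.1 CPM there, against 127.5 to 738.1 CPM in the other 8 mice of its group and a mean of 439.4 ± 184.1 CPM in controls (SD, n = 9). Hspa5 stood at 15675.6 CPM, against 1827.8 to 4438.4 CPM in the other 8 and a control mean of 4900.3 ± 1782.9 CPM. Both values are far outside the range of the group, while the highest 28 d control reached 1797.9 CPM of Creld2 and 12664.6 CPM of Hspa5.

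The genes high in that mouse included BiP cochaperones and genes of ER-associated degradation. Relative to the control mean, Dnajb9 was 5.15 times, Syvn1 4.98 times, Sdf2l1 4.89 times, Hsp90b1 3.45 times, Manf 3.22 times, Pdia4 3.06 times, Dnajc3 2.99 times, Hyou1 2.77 times, Sel1l 2.05 times and Ern1 1.93 times as high, each the highest of all libraries. Of the disulfide isomerases Pdia4 alone was high, while Pdia3 was at 1.15, P4hb at 0.983 and Pdia6 at 0.801 times the control mean. Ddit3 was 4.49 times as high, at 14.7 CPM, against 1.6 to 3.68 CPM in the other 8. Members that carry an ERSE were on both sides: Creld2 (6.87 times), Syvn1, Hsp90b1, Hspa5 (3.2 times) and Dnajc3 were high, while Pdia6 (0.801), Calr (0.83) and Canx (0.604) were not. Atf4 was at 1.9 times the control mean, and of the other ATF4 targets Ppp1r15a was at 1.03, Chac1 at 0.784 and Trib3 at 0.441 times, with Asns and Sesn2 at 0. The acinar markers summed to 0.499 CPM in that library and hepatocyte markers to 26943.9 CPM. As it is 1 mouse of 9 it made no call at 20 mg/mL, where the Hspa5 mean was 4649.0 ± 4227.2 CPM with it and 3270.7 ± 938.6 CPM without it (SD).

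Replicate 9 of 20 mg/mL at 28 d, with a scaling factor of 1.48, was also high in Ddit3, Atf4 and Syvn1, but not in Hspa5 (0.566 times the control mean), Hsp90b1 (0.822) or Creld2 (1.08). Ddit3 was at 18.5 CPM, 5.73 times the control mean, and Atf4 at 142.1 CPM, 2.83 times, both the highest of all libraries, and Syvn1 was at 1086.3 CPM, 2.06 times. Calr (0.214), Pdia6 (0.227) and Canx (0.405) were low there, and so was Trib3 (0.269).

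Genes of the same pathways outside the 33 were counted from lists chosen by function. At 40 mg/mL and 14 d 3.68% of all probes fell and 2.84% rose. Among probes with a mean above 500 CPM 41.4% fell, and among those above 100 and up to 500 CPM 16.5%. The part of abundance in the counts below was not tested. In this comparison, 7 of 24 tested other ER chaperones, foldases and glycosylation genes fell and 1 rose, with a median log2 fold change of -0.51. Those that fell include Ganab (glucosidase II, -0.75, adjusted p 0.00271 in edgeR), Cnpy2 (-0.60) and Ppib (cyclophilin B, -0.91), and the one that rose was Fkbp14 (0.95, adjusted p 0.00384). Of 32 genes of ER-associated degradation, translocation and export 4 fell (Sec62, Os9, Erlec1 and Spcs3) and 0 rose, with a median of -0.29. Of 21 other sensors and regulators 2 fell (Tmbim6 and Mbtps2, Mbtps2 being a protease that cleaves ATF6) and 1 rose, Ddit4 (REDD1, an ATF4 target that restrains mTORC1), at 0.346, 0.975 and 9.41 CPM at 40 mg/mL, against 0, 0.218 and 0.862 CPM in controls. Of 26 genes of amino acid supply and tRNA charging, many of them ATF4 targets, 1 fell (Cbs) and 0 rose, with a median of -0.06. Of 20 cytosolic heat shock genes 0 passed, with a median of 0.13. At 28 d 0 genes of these 5 lists passed at 40 mg/mL. For each gene named here that fell, 6 or 7 of the 8 mice lay below all controls, but these genes were picked for a small p, which favours such separation. Of the 8 libraries 4 are high-factor, and the part of the factor in these values was not tested.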

How the data were processed

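The authors deposited raw read counts per TempO-Seq probe for 72 libraries, neither scaled nor logged. Per the submitters' processing notes, bcl2fastq 2.20 and Bowtie were used; the Bowtie version and the genome build are not given in the sources used here. Samples were grouped after the labels for dose and duration, which give no batch or pairing, and replicates are numbered as listed. The members and lists were chosen with earlier results of these data known.

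The library under 100000 counts was left out, and 17050 probes passed filterByExpr. Tests used edgeR 4.0.16 in R 4.3.3 (TMM, robust quasi-likelihood fit, 1 mean per group over 71 libraries, Benjamini-Hochberg over all probes, threshold 0.05). The common biological coefficient of variation was 0.402. The method was tested on simulated data. Every member is named at its most abundant probe, and other probes where their call differs; of other lists, up to 4 genes with the smallest p. Alternatives included DESeq2 1.42.0 and limma 3.58.1. Scaling by library totals, the split of members' values by scaling factor and by promoter element, the classes of mean CPM and the check of single libraries in all members were added after the data were seen. Promoter sequences are RefSeq's (GRCm38.p6).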

Additional observations from a re-analysis of the deposited data

Results flagged for a closer look

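In 28 of 264 pairs of member and group, 1 library's log2 CPM lay apart from the rest of its group by Dixon's 95% criterion, which chance meets in about 1 of 20 groups. Of the 28, 15 are in replicate 3 of the 28 d controls and 6 in replicate 9 of 20 mg/mL at 14 d. Among the 4 members called at 40 mg/mL and 14 d, 0 pairs in that group and its controls met it. The criterion compares the most extreme value with its nearest neighbour, so low libraries that lie together can go unflagged. The 4 high-factor libraries of that group lie together in this way, so the 0 does not bear on them.

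Replicate 9 of 20 mg/mL at 14 d was far above the other 8 mice, in CPM, in Ddit3 (14.7), Hspa5 (15675.6), Hsp90b1 (1425.0), Pdia4 (946.4), Herpud1 (523.8) and Syvn1 (1674.9). The next highest mouse had 4438.4 CPM of Hspa5 and 469.7 CPM of Syvn1.

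Replicate 3 of the 28 d controls was far below the other 8 controls, in CPM, in Eif2ak3 (9.79), Hspa5 (965.0), Hsp90b1 (148.7), Hyou1 (39.3), Dnajb9 (1.71), Dnajb11 (183.8), Pdia3 (253.8), Pdia4 (123.6), Pdia6 (29.8), P4hb (117.7), Calr (195.3), Canx (444.3), Edem1 (88.8) and Sel1l (107.6), and far above them in Ppp1r15a (13.5). Its scaling factor was 1.37; its part in these values was not tested.

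Replicate 2 of 10 mg/mL at 14 d, with a factor of 1.26, was low in CPM in Pdia3 (460.2), Pdia6 (58.6) and Canx (589.7). Single members stood apart in 4 more libraries: Creld2 was high in replicate 1 of 10 mg/mL at 28 d (1377.0 CPM), Asns in replicate 8 of that group (1.14 CPM) and Xbp1 in replicate 4 of the 28 d controls (264.0 CPM), and Ppp1r15a was low in replicate 6 of the 14 d controls (1.01 CPM).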

How the results depend on the processing

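At 40 mg/mL and 14 d the main analysis called 4 members. DESeq2 called 5, DESeq2's size factors 4, limma 3 and probes summed per gene 4. No filter gave 2, the groups of the comparison alone 1, the log2 scaling factor as a covariate 1 (Edem1, higher), and the failed library kept, replicates 1 and 7 left out together, or all 11 high-factor libraries left out, 0 each. Library totals alone gave 6, of which 5 were higher. Leaving out 1 library at a time gave 1 to 6. Without replicate 1, 2, 7 or 8 of 40 mg/mL the count was 1 (Canx), and without replicate 6 it included Atf4, higher. For the 14 d trend the main count was 5, all falling. DESeq2 and summed probes gave 8, among them Atf4 rising, and library totals gave 8, of which 5 rose. Limma and no filter gave 3, and the covariate 1 (Edem1, rising). With the failed library kept, replicates 1 and 7 left out, or high-factor libraries left out, the count was 0. Leaving out 1 library gave 1 to 10, with Atf4 rising in some of these runs. At 20 mg/mL and 28 d the count was 0, against 3 with DESeq2, 2 with limma, 2 without high-factor libraries, and 0 to 4 leaving out 1 library, with 4 without control replicate 3 and 3 without dosed replicate 7. In the 28 d trend limma called 1 (Atf4). Elsewhere counts stayed at 0 in all alternatives run. The causes were not tested. Single members were followed for the 11 with an unadjusted p under 0.05 in edgeR at 40 mg/mL and 14 d, at both durations. Of these values, 48 lost the threshold, 10 gained it, 0 changed sign while called and the rest kept their side. Only the 4 members called at 14 d could lose it. Leaving out 1 library at a time, Hsp90b1 lost it in 10 of 17 runs, Pdia4 in 7, P4hb in 5 and Canx in 0. No paired analysis was possible because the labels give no replicate numbers or pairing. Members with a mean under 5 CPM had mean counts per library of 4.25 (Asns) to 43.0 (Ddit3). How large a change could be detected in them was not tested.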
